A study of Rattus norvegicus with 6 samples.

Results

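Suprabasin (Sbsn), ladinin 1 (Lad1) and beta-B1 crystallin (Crybb1) are genes of surface epithelia and of the eye lens that the array also measured in rat heart. They were grouped because their signals differed strongly between diabetic and normal ventricle although their known sites of expression lie elsewhere. Every probe set whose platform annotation named 1 of these genes was used. That gave 3 probe sets, 1 per gene, of 15866 probe sets without controls, which name 10411 genes. The rule used the contrast between diabetic and normal arrays, so that difference is given for these genes as a description, without a test.

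The study compared the left ventricle of 3 diabetic rats with that of 3 normal rats, hybridizing total RNA of each heart to its own single-colour Affymetrix array. By the design text each heart came from a different animal. The labels do not say how diabetes was produced, how long it lasted, or the strain, sex and age of the rats, and they name no other treatment. Values are deposited signal intensities on a linear scale. The ± after a signal is the SD (n = 3 arrays per group), and after a log2 difference it is a standard error.

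Sbsn encodes a secreted protein of the suprabasal, differentiating layers of stratified epithelia such as epidermis. Lad1 encodes a protein of the anchoring filaments that tie basal epithelial cells to their basement membrane, and it is a target of autoantibodies in a blistering skin disease. Crybb1 encodes a structural beta-crystallin that fills the fibre cells of the lens. Working ventricle is built of cardiomyocytes, fibroblasts, endothelium and mural cells, with a thin mesothelial layer on its surface, and none of these is known for a keratinizing or lens programme.

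The annotated starts of the 3 genes are shown because Lad1 and Crybb1 were both lower in diabetic ventricle and Sbsn was higher. Each window runs 5′ to 3′ from 250 bases before to 50 bases after the start, on the gene's own strand, from RefSeq (GRCr8). Capitals mark matches, on either strand, to 5 short motifs. These were the AP-1 site, spelled TGANTCA, the core promoter element known as the TATA box, spelled TATAAA, the GC box, spelled GGGCGG, the binding site of GATA factors, spelled AGATAA, and the Maf half-site, spelled TGCTGA. Overlapping matches would be merged. The motifs were chosen with these windows in view.
Sbsn, downstream start, chr1:95128731-95129030, plus strand: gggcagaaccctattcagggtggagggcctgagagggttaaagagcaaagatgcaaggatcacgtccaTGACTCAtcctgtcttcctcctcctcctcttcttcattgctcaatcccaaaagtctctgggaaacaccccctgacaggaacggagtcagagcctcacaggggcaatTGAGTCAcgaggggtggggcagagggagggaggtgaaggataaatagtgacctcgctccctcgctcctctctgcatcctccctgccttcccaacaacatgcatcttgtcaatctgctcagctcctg
Lad1, chr13:49801097-49801396, plus strand: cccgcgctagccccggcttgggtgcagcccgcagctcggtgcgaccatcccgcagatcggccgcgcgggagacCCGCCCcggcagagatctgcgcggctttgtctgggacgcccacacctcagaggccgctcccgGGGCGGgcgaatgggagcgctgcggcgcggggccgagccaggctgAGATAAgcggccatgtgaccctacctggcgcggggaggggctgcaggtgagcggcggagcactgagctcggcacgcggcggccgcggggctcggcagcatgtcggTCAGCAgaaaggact
Crybb1, chr12:50043707-50044006, minus strand: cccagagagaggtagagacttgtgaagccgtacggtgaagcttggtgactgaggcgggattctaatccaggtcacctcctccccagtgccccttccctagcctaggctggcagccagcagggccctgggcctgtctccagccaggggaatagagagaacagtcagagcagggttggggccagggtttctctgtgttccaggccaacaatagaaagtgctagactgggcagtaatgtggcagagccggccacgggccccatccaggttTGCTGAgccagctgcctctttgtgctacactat

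The downstream Sbsn window held 2 AP-1 matches, the Lad1 window 2 GC boxes, 1 GATA match and 1 Maf half-site, and the Crybb1 window 1 Maf half-site. Both Maf half-sites lay after the annotated start, at an offset of 35 in Lad1 and 17 in Crybb1. Among 33469 annotated rat windows of the same length, 7.33% held an AP-1 match, 33.06% a GC box, 11.58% a GATA match, 18.44% a Maf half-site and 14.22% a TATA box. No motif was found in windows of all 3 genes. GC content was 55% for the downstream Sbsn start, 74% for Lad1 and 59% for Crybb1, against a median of 51.7% over all windows. Sbsn has a further annotated start upstream, beside Tmem147, with a GC content of 67.3% and none of the 5 motifs. Which of the starts the probe set reports is not known here, and a match in these windows is a description of sequence only.

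Sbsn was measured by probe set 1373781_a_at and was higher in diabetic ventricle. Its signal was 599.6, 762.1 and 336.7 in diabetic 1, 2 and 3, against 167.7, 113.4 and 133.8 in normal 1, 2 and 3. The groups did not overlap, and the dimmest diabetic array was 2.01 times the brightest normal one. Diabetic 3 stood well below the other two diabetic arrays, so the size of the difference varies more for Sbsn than for the other genes. The means were 566 ± 215 in diabetic and 138 ± 27.4 in normal ventricle, a ratio of 4.09. On the scale of log2(signal + 16), which understates changes of dim probe sets, the difference was 1.86 ± 0.37.

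Lad1 was measured by probe set 1374195_at and was lower in diabetic ventricle. Its signal was 59.4, 73.2 and 49 in diabetic 1, 2 and 3, against 215.3, 204 and 247.8 in normal 1, 2 and 3. The groups were well apart, with the dimmest normal array at 2.79 times the brightest diabetic one. The means were 60.5 ± 12.1 in diabetic and 222 ± 22.7 in normal ventricle, so that the normal mean was 3.67 times the diabetic one. The log2 difference was -1.65 ± 0.15.

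Crybb1 was measured by probe set 1369985_at and showed the widest separation of the 3 genes. Its signal was 27.5, 27.2 and 20.7 in diabetic 1, 2 and 3, against 258.5, 221.8 and 205.5 in normal 1, 2 and 3. The dimmest normal array was 7.47 times the brightest diabetic one. The means were 25.1 ± 3.84 in diabetic and 229 ± 27.1 in normal ventricle, and the normal mean was 9.10 times the diabetic one. The log2 difference was -2.57 ± 0.12. No detection calls were used here, so it is not known whether the diabetic signals lay above background.

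**Figure D1:**
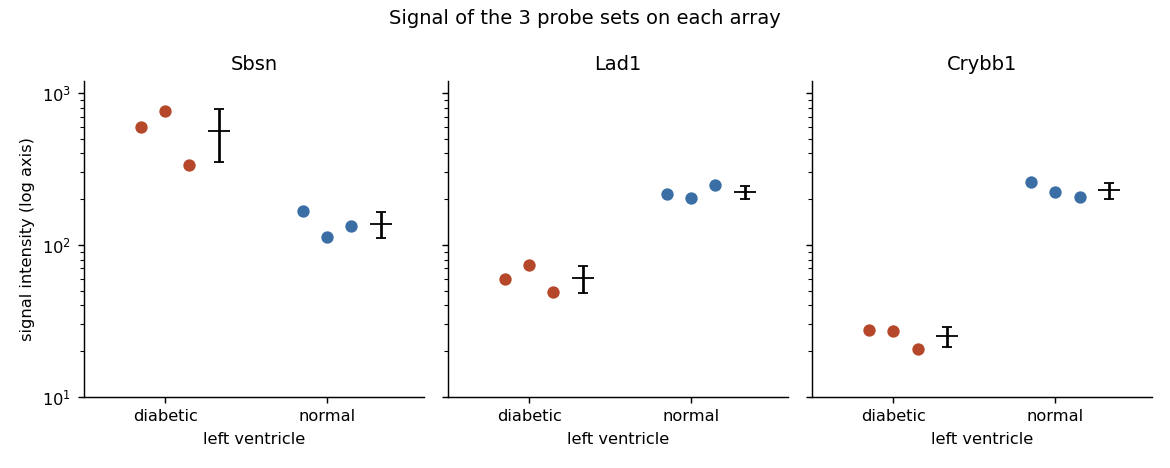
Signal intensity (log axis) of Sbsn, Lad1 and Crybb1 on each of the 3 diabetic and 3 normal arrays, with the group mean and SD beside the points. Sbsn lies between 336.7 and 762.1 on diabetic arrays and between 113.4 and 167.7 on normal arrays, and the order of the groups is the opposite for Lad1 and Crybb1.

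Set against the array as a whole, the probe sets were of middling or low brightness, apart from Sbsn on diabetic arrays. Sbsn lay at 1.80 to 4.23 times the array median on diabetic arrays and at 0.608 to 0.891 times on normal arrays. Lad1 lay at 0.262 to 0.407 times the median on diabetic arrays and at 1.09 to 1.36 times on normal arrays. Crybb1 lay at 0.111 to 0.151 times on diabetic arrays and at 1.13 to 1.37 times on normal arrays. Sbsn was thus above the median on every diabetic array and below it on every normal array, and the other two were below it on every diabetic array and just above it on every normal array.

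As a percentile of all probe sets on the array, Sbsn stood at 63.6 to 81.5 on diabetic and 38.8 to 47.3 on normal arrays. Lad1 stood at 23.0 to 31.4 on diabetic and 52.0 to 56.8 on normal arrays. Crybb1 stood at 13.2 to 16.2 on diabetic and 52.5 to 57.7 on normal arrays. Probe sets differ in affinity, so a percentile does not rank the abundance of one gene's RNA against another's. In bulk RNA, fewer cells of a type and less RNA per cell cannot be told apart.

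**Figure D2:**
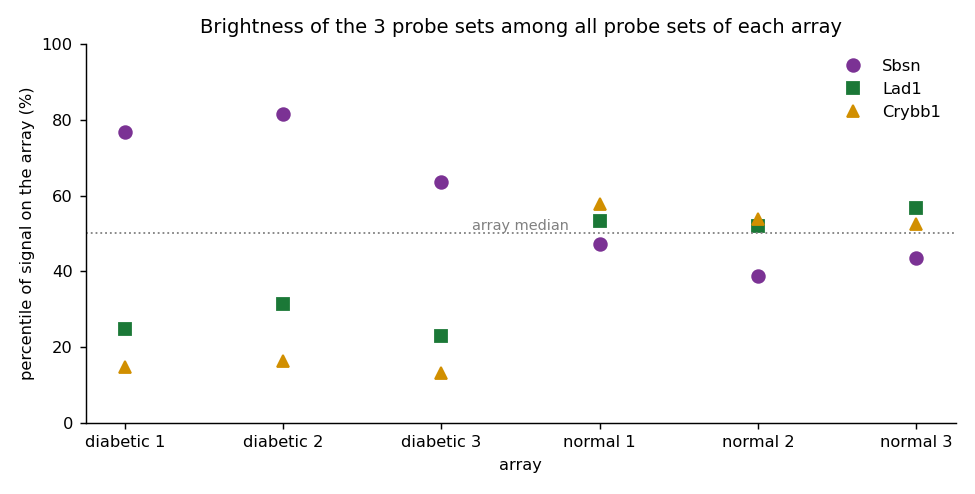
Percentile of the signal of each gene among all 15866 probe sets, on each array. On diabetic arrays Crybb1 sits at 13.2 to 16.2%, Lad1 at 23.0 to 31.4% and Sbsn at 63.6 to 81.5%, while on normal arrays all 3 sit between 38.8 and 57.7%.

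The 3 genes varied to different degrees within the groups. The SD of log2 signal, pooled over both groups, was 0.45 for Sbsn, 0.19 for Lad1 and 0.15 for Crybb1, against a median of 0.21 over all tested probe sets. In diabetic ventricle all 3 genes had their lowest signal in diabetic 3, at -0.65, -0.22 and -0.16 from the group mean on the same scale for Sbsn, Lad1 and Crybb1. In normal ventricle the order differed: Sbsn and Crybb1 were highest in normal 1 and Lad1 in normal 3. Sbsn and Lad1 were lowest in normal 2 and Crybb1 in normal 3.

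These differences were read beside a fit over the whole array. Probe sets whose mean signal over all 6 arrays exceeded the 40th percentile (a signal of 117.6) were tested with limma, and 245 of 9518 (2.57%) were called changed at an adjusted p under 0.05, with 131 higher and 114 lower in diabetic ventricle. Of the tested probe sets, 1.38% were called higher and 1.2% lower, and 25.8% had no overlap between diabetic and normal arrays. Sbsn, Lad1 and Crybb1 were chosen on this contrast, so no call is given for them.

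Crybb1 and Lad1 lay only a little above the brightness filter, with means over all arrays of 127 and 141, and passed it through the normal arrays. Sbsn had a mean of 352. When the filter was set on the mean of log2 signals, Crybb1 fell below it.

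**Figure D3:**
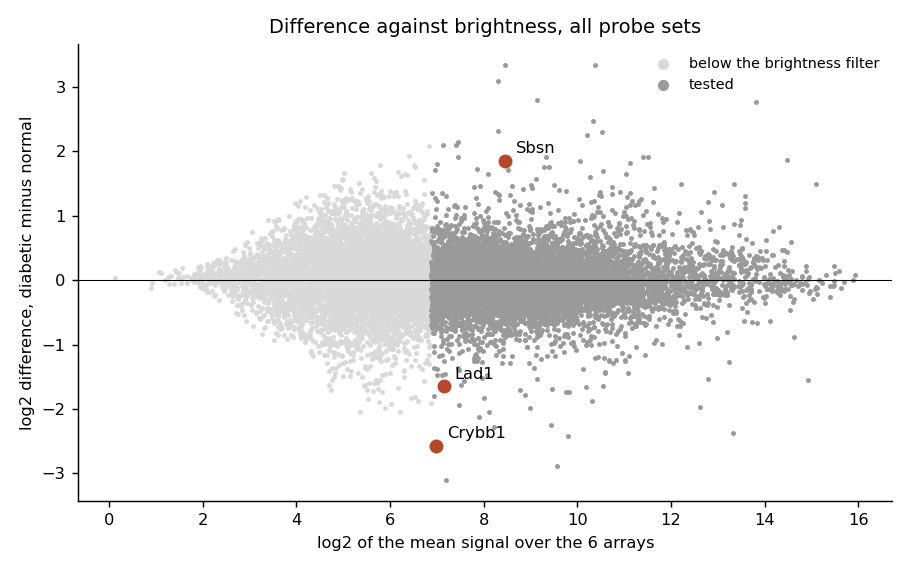
Log2 difference, diabetic minus normal, against the log2 of the mean signal over 6 arrays, for all 15866 probe sets, with the 9518 tested ones in darker grey. Sbsn lies at 1.86, Lad1 at -1.65 and Crybb1 at -2.57, each toward the outer edge of the points of its brightness.

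Genes that share the epithelial or lens setting of these 3 were examined as lists, from which the 3 themselves were left out. Of 101 genes in 4 epithelial lists, 58 had a probe set and 15 passed the brightness filter. None of the 15 was called in either direction by limma, and 2 had an unadjusted p under 0.05. Of 44 genes in 3 lens lists, 32 had a probe set and 9 were tested, with none called and 1, Cry2, at an unadjusted p under 0.05. Cry2 is a cryptochrome counted among the enzyme crystallins and relatives, not a crystallin. Over all tested probe sets 2.57% were called and 19.9% had an unadjusted p under 0.05, and lists of 15 and 9 genes are too short to be told apart from the first share. Itga6 and Cry2 missed the threshold narrowly and were called under 5 and 4 of 16 alternative settings. The median log2 difference was 0.12 for the tested epithelial genes and 0.00 for the tested lens genes, against -0.01 for all tested probe sets.

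Keratinocyte differentiation is the setting in which Sbsn is best known. Of 38 genes of that list, 20 had a probe set and 2 passed the filter. Dmkn, which encodes the secreted epidermal protein dermokine, was at 196.4, 98.7 and 105 in diabetic arrays and at 87.1, 142 and 107.7 in normal arrays, which overlap (log2 0.18 ± 0.26, limma adjusted p = 0.754). Perp, a desmosomal protein, averaged 1224 ± 384 in diabetic and 854 ± 63.9 in normal ventricle at its brightest probe set (log2 0.47, limma adjusted p = 0.299). At its other tested probe set the groups did not overlap (log2 0.81, limma adjusted p = 0.0821). The remaining 18 genes, the epidermal keratins Krt1, Krt5, Krt10 and Krt14 among them, lay below the filter.

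Most keratinocyte genes were dim, and most overlapped between diabetic and normal ventricle, as did most probe sets of the array. The median percentile of the 20 genes was 23.7, and the groups did not overlap at 2 of 20, where 19.8% of all probe sets had no overlap. These were Loricrin, a cornified envelope protein, with a log2 difference of 0.17, and Tgm1, the keratinocyte transglutaminase, with -1.17, both named after their values were seen. Loricrin was dim and barely separated, at 20.5 on diabetic 2 and 20.4 on normal 1. These counts take each gene's brightest probe set. The probe sets of Krtdap are described with the neighbours of Sbsn. The summed signal of the list ran from 1925 to 2705 in diabetic arrays and from 1860 to 1979 in normal arrays.

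Lad1 belongs with the anchoring filaments and hemidesmosomes of basal epithelium. Of 15 genes, 7 had a probe set and 5 were tested, and none was called. Itga6, the integrin alpha-6 chain of hemidesmosomes, came nearest, with 133.3, 209.5 and 262.9 in diabetic arrays and 376.1, 410 and 534.4 in normal arrays. Its groups did not overlap, with a log2 difference of -1.10 ± 0.24 and a limma adjusted p of 0.0519. Its other probe set, below the filter, stood at 0.08. Its partner chain Itgb4 was at 259, 204.8 and 227.5 in diabetic arrays and at 230.9, 167.2 and 95.7 in normal arrays, which overlap (log2 0.52, limma adjusted p = 0.327). Plec, the cytoskeletal linker plectin, had a log2 difference of -0.31 (limma adjusted p = 0.409), Itga3 one of 0.21 (limma adjusted p = 0.674) and the tetraspanin Cd151 one of 0.12 (limma adjusted p = 0.679). The groups did not overlap at 3 of the 7 genes, against 19.8% of all probe sets, and 7 genes are too few to be told apart from that share. Of the 3, Itga6 was lower in diabetic ventricle and Cd151 and Lama3 were higher. Lama3, a laminin chain of the anchoring filaments named after its values were seen, lay below the filter at 71.7, 39.3 and 14.2 in diabetic arrays and 11.7, 9.2 and 6.9 in normal arrays (log2 1.07).

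General epithelial genes gave few tested members. In the simple epithelium list, 25 of 34 genes had a probe set and 4 were tested, with none called. The signal of Cdh1, the epithelial cadherin, ran from 4.2 to 12.6 over the 6 arrays, and that of Epcam from 5.8 to 49.7. Spint2, an inhibitor of membrane serine proteases, was at 551.4, 359.3 and 401.5 in diabetic arrays and at 54.7, 271 and 256.6 in normal arrays, without overlap (log2 1.34, limma adjusted p = 0.168). Prom1, Cldn3 and Myo5b had log2 differences of 0.47, 0.63 and 0.01 (limma adjusted p = 0.258, 0.386 and 0.997). The groups did not overlap at 5 of the 25 genes, against 19.8% of all probe sets. Spint2, Cldn4, Elf3 and Ap1m2 were higher in diabetic ventricle and Prss8 lower, all but Spint2 below the filter and named after their values were seen. The summed signal of the list ran from 2565 to 3642 in diabetic and from 2096 to 2573 in normal arrays.

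Mesothelium is the epithelial layer that a ventricle does carry. In the mesothelium and epicardium list, 9 of 17 genes had a probe set and 4 were tested, with none called. Msln, mesothelin, lay below the filter at 154.4, 88.4 and 72.4 in diabetic arrays and 174.6, 140.3 and 48.3 in normal arrays, which overlap. Wt1, a transcription factor of epicardium, was tested at its brighter probe set (log2 -0.20, limma adjusted p = 0.558). Efemp1, Tcf21 and Aldh1a2 had log2 differences of -0.36, -0.29 and -0.18 (limma adjusted p = 0.306, 0.383 and 0.684). The summed signal of the list overlapped between the groups, at 992 to 1283 in diabetic and 1180.3 to 1458 in normal arrays.

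Only 1 of the other crystallins was bright enough to be tested. Of 15 lens crystallin genes, 12 had a probe set, and Cryab alone passed the filter. Cryab encodes the small heat shock protein alpha-B crystallin, which is abundant in heart muscle, and stood above the 99th percentile on every array. Its signal was 37096, 40321 and 36181 in diabetic arrays, against 43128, 39997 and 34060 in normal arrays, which overlap (log2 -0.04, limma adjusted p = 0.918). The other 11 lay below the filter, with log2 differences from -0.47 for Cryba4 to 0.77 for Cryba2, on a scale that understates changes of dim probe sets. Among them Crybb2, the beta-crystallin most abundant in lens, was at 33.4, 18.1 and 25 in diabetic arrays and at 59.5, 10.2 and 35.9 in normal arrays, which overlap. Cryaa, the alpha-A crystallin of the lens, was at 62.3, 36.6 and 79.6 in diabetic arrays and at 27.3, 35.6 and 36.1 in normal arrays (log2 0.59). It was the one crystallin of the 12 whose groups did not overlap, against 19.8% of all probe sets, and was also named after its values were seen. Crybb3 was at 97.4, 63.6 and 106.7 in diabetic arrays and 73.7, 83.3 and 22.9 in normal arrays, which overlap.

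Regulators of lens genes and the enzyme relatives of crystallins completed the comparison. In the list of lens fibre genes and regulators, 16 of 23 had a probe set and 4 were tested, with none called. Maf, a factor of the lens fibre programme, had a log2 difference of -0.45 at its brightest probe set (limma adjusted p = 0.334), and Prox1, another such factor, one of -0.18 (limma adjusted p = 0.688). Gja3 stood at -0.32 (limma adjusted p = 0.328), while Hsf4 went the other way, at 0.48 (limma adjusted p = 0.29). Among 4 tested enzyme crystallins and relatives, Cry2, a circadian repressor whose name comes from cryptochrome and not from crystallin, averaged 490 ± 25.3 in diabetic and 306 ± 29.6 in normal ventricle. Its groups did not overlap (log2 0.66 ± 0.14, limma adjusted p = 0.0512), and it missed the threshold narrowly. Its other probe set stood at 0.59 (limma adjusted p = 0.136). Crym, Cryl1 and Cryz had log2 differences of 0.27, 0.09 and 0.00.

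**Figure D4:**
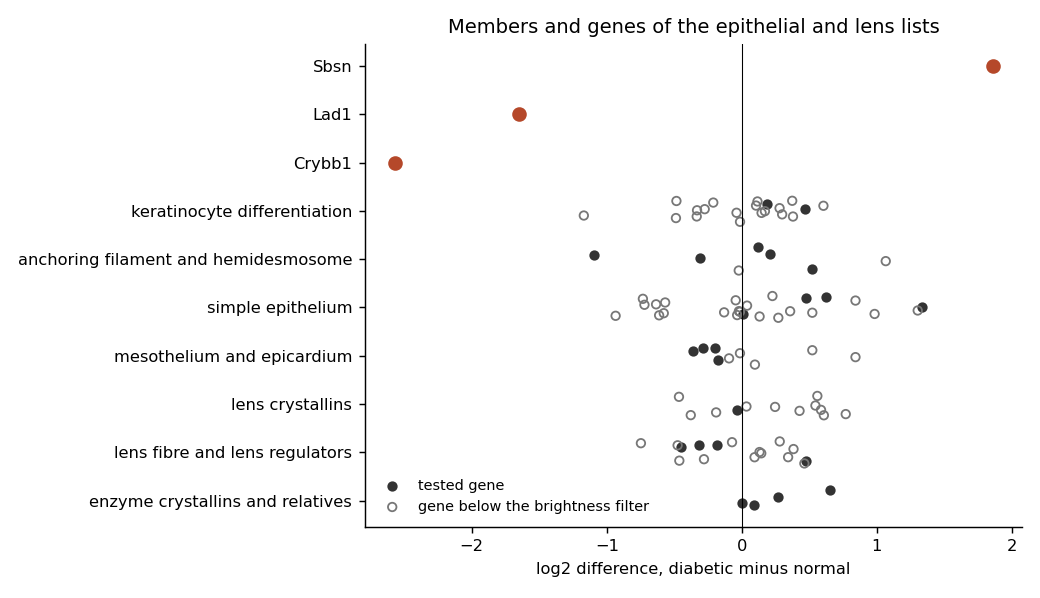
Log2 difference, diabetic minus normal, of the 3 genes and of every gene of the epithelial and lens lists that has a probe set (brightest probe set, spread vertically for legibility, open circles below the brightness filter). The list genes lie between -1.17 and 1.34, inside the range from Crybb1 at -2.57 to Sbsn at 1.86.

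Chromosomal neighbours give a further comparison, since the gene order places these genes beside relatives and beside heart genes. Among the 5 annotated genes on each side of the 3 genes, 17 of 30 had a probe set and 13 were tested. None of the 13 was called by limma, and 3 had an unadjusted p under 0.05, all lower in diabetic ventricle. Over all tested probe sets 2.57% were called and 19.9% had an unadjusted p under 0.05, with 981 of 9518 at such a p and lower, and nothing is read from the counts over 13 genes. Their median log2 difference was -0.29, against -0.01 over all tested probe sets.

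Sbsn lies in a cluster of epidermal genes with Dmkn and Krtdap. Krtdap, a keratinocyte differentiation-associated protein, had 2 probe sets that disagreed, both below the filter. At 1373005_at its signal was 40.6, 68.4 and 67.9 in diabetic arrays and 18.4, 10.8 and 6.8 in normal arrays, without overlap and with a log2 difference of 1.42. At 1388971_s_at it was 56.8, 74.4 and 38.6 in diabetic arrays and 64.8, 21.9 and 76.3 in normal arrays, which overlap. Gapdhs, a glyceraldehyde-3-phosphate dehydrogenase of sperm, has its annotated start inside the span of Sbsn, and its log2 difference was -0.43 (limma adjusted p = 0.316). Tmem147, on the other side, stood at -0.29 (limma adjusted p = 0.327) and Haus5 at -0.50 (limma adjusted p = 0.247), while Atp4a, below the filter, stood at -0.39.

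Lad1 lies between 2 troponin genes of the contractile filament. Tnnt2, the cardiac troponin T, was among the brightest probe sets, at 19340.2, 31752 and 30805 in diabetic arrays and 31266, 32991 and 25321 in normal arrays, which overlap (log2 -0.16, limma adjusted p = 0.749). Its other, dim probe set stood at 0.63, below the filter. Tnni1, the slow skeletal troponin I that the fetal heart uses, was at 151.6, 158.6 and 139.9 in diabetic arrays and 89.4, 135.7 and 127.6 in normal arrays at its tested probe set. There the diabetic arrays all lay above the normal ones (log2 0.33, limma adjusted p = 0.331), while its other probe set, below the filter, stood at -0.18. Csrp1, Phlda3 and Tmem9 had log2 differences of 0.10, -0.53 and -0.49, with limma adjusted p-values of 0.822, 0.509 and 0.209.

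Crybb1 lies between Tpst2, a protein-tyrosine sulfotransferase, and Cryba4, a further lens crystallin whose annotated span overlaps its own. Cryba4 was at 127.4, 41.8 and 32.3 in diabetic arrays and 101.8, 107.8 and 56.3 in normal arrays, which overlap, and lay below the filter. Tpst2 was at 586.9, 638 and 484.2 in diabetic arrays and 683.2, 785.2 and 766.1 in normal arrays, without overlap (log2 -0.38 ± 0.16, limma adjusted p = 0.214). Tfip11 and Srrd stood at -0.05 and 0.04, Hps4 at -0.44, and the long noncoding RNA Miat, below the filter, at 0.29.

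**Figure D5:**
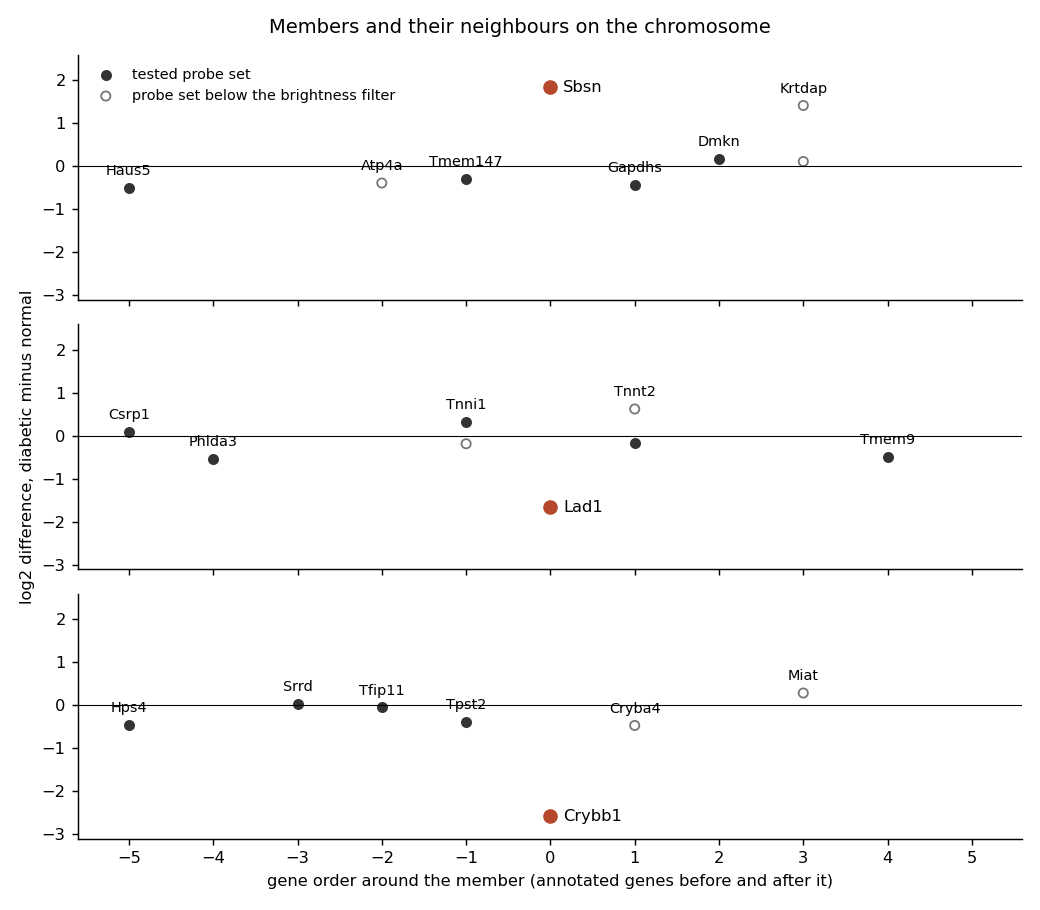
Log2 difference, diabetic minus normal, of Sbsn, Lad1 and Crybb1 and of the probe sets of their neighbours, in gene order with 5 annotated genes on each side. No tested neighbour lies beyond -0.53 or 0.33, and the neighbour nearest in size to any of the 3 genes is 1 of the 2 Krtdap probe sets, at 1.42 and below the brightness filter.

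Genes with the most similar course over the arrays were sought by Pearson correlation of log2 signals over all 6 arrays, among 8090 other tested single-gene probe sets. With the groups this far apart, such a correlation mostly reflects the split between them, which is the contrast on which the 3 genes were chosen. The counts and r values therefore mostly describe that split. Sbsn varied more within the groups, with a pooled SD of 0.45 against 0.19 for Lad1 and 0.15 for Crybb1. A high r with Sbsn thus also takes in some likeness within the groups, by the way these probe sets were picked. A shared course within the groups was not tested apart from the split. It exceeded 0.95 for 60 probe sets with Sbsn, 111 with Lad1 and 106 with Crybb1, and lay below -0.95 for 63, 90 and 73. For Sbsn the most like were Atl2 (r = 0.993), Haus8 (r = 0.992), Txnrd1 (r = 0.990) and Zmiz1 (r = 0.985), and the most opposite were Inpp5j (r = -0.997) and Map4k4 (r = -0.991). Txnrd1, a thioredoxin reductase, was at 1168, 1235.5 and 869.6 in diabetic arrays and 623.1, 608 and 576.9 in normal arrays. Like Sbsn it was lowest of the diabetic arrays in diabetic 3, a likeness that picking by r favours.

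For Lad1 the most like were Pycard (r = 0.997), Cdr2 (r = 0.997), Klhl31 (r = 0.994) and Col5a2 (r = 0.994), and the most opposite were Slc6a8 (r = -0.999) and Ypel5 (r = -0.995). Cdr2 was the nearest of these in size, at 80.4, 110.1 and 77.6 in diabetic arrays and 280.3, 282.5 and 314.8 in normal arrays. For Crybb1 the most like were S1pr3 (r = 0.996), Cstpp1 (r = 0.996), Mpc1 (r = 0.995) and Mrpl37 (r = 0.993), and the most opposite were Coro6 (r = -0.995) and Dkk3 (r = -0.992). S1pr3, a receptor for sphingosine-1-phosphate, was at 353.7, 323.5 and 326.8 in diabetic arrays and 810.3, 794 and 711.2 in normal arrays.

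The tissue label was checked with marker lists. Of 14 ventricular cardiomyocyte genes with a probe set, 13 were tested and most stood near the top of every array. Myl2, the ventricular light chain, stood above the 99th percentile throughout at its brightest probe set, and Irx4, a ventricular transcription factor, lay below the filter. Myh7 rose and Myh6 fell. Among markers of other cells, where 1.38% of all tested probe sets were called higher and 1.2% lower, 4 of 8 tested fibroblast genes fell (Col1a1, Col1a2, Col3a1 and Lum), and the list's summed signal was 21260.4 to 22599 in diabetic and 33233 to 38033 in normal arrays. Dcn, the brightest fibroblast gene, was not called (log2 -0.01, limma adjusted p = 0.982). Nor were Ddr2, Tcf21 and Pdgfra, at log2 -0.64, -0.29 and -0.24. Of 8 tested atrial genes Nppa rose, and the summed signal was 21997 to 32080 in diabetic and 4978 to 6359 in normal arrays. Without Nppa the other 7 genes summed to 2264 to 2729 in diabetic and 1716 to 2543 in normal arrays, which overlap. Of 8 tested endothelial genes Tie1 fell. None was called among 5 smooth muscle, 6 blood and leukocyte, 2 adipocyte and 2 Schwann cell or neuron genes tested, numbers too small to be told apart from those shares. The summed signal of the smooth muscle list was 13713 to 14979 in diabetic and 11609 to 12316 in normal arrays, and that of the Schwann cell and neuron list 1978 to 2448 in diabetic and 2451 to 2634 in normal arrays. Most of the smooth muscle sum was Des, which averaged 11569 in diabetic and 8945 in normal arrays (log2 0.37). That sum therefore mainly follows Des and is no measure of smooth muscle cells. Of the list's other tested genes Smtn was higher (log2 0.19), and Tagln, Acta2 and Myh11 were lower (log2 -0.71, -0.19 and -0.18). Pmp22, the brightest gene of the Schwann cell and neuron list, averaged 1291 in diabetic and 1477 in normal arrays. The part of these shifts in the signals of Sbsn, Lad1 and Crybb1 was not tested.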

How the data were processed

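The table the authors deposited gives linear signal intensity values, 1 for each probe set on each array. How it was made is not given in the sources used here, and the labels name only the manufacturer's standard protocol. The mean after trimming 2% of probe sets at each end ran from 495.5 to 496.6 over the arrays and array medians from 180.0 to 191.0, so the deposited intensities were used without further scaling. The number of arrays limits the precision.

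Of 15923 probe sets, 57 controls were left out. Of the rest, 12783 had 1 gene in the platform annotation, 312 several and 2771 were unnamed here. Symbols were updated by gene number through a rat gene table (GRCr8), which also gave gene order. Promoter windows came from RefSeq, GRCr8.

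Signals were turned into log2(signal + 16). Probe sets above the 40th percentile of mean signal were tested in limma 3.58.1 (R 4.3.3; lmFit and eBayes, two-sided, with no term other than group), with Benjamini-Hochberg adjustment over all 9518. The code was tested on simulated data. For the 3 chosen genes the standard error comes from the SDs over arrays. With 3 against 3 arrays an exact permutation test cannot go below p = 0.1. List genes are counted at their brightest tested probe set. Named were all neighbours with a probe set, per epithelial or lens list up to 4 genes with the smallest p and the brightest, and the 4 most like and 2 most opposite probe sets of each gene. In the other marker lists fewer genes were named than this rule gives. Fixed names were Dmkn, Krtdap, Cryab, Col17a1, Tnni1 and Tnnt2, and other list genes were named after their values were seen. The genes and lists were chosen with earlier results of these data known. Same-numbered diabetic and normal arrays were checked for pairing: their deviations from the group means correlated at 0.082, 0.029 and 0.013, so the numbers were not used as a block. Any 2 arrays shared at most 25 identical values. Alternatives were other pseudocounts, scalings, filters and priors, the replicate block and each array left out. A filter on mean log2 signal was added after seeing the data. Python 3.11.15 and matplotlib 3.10.9 made the figures.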

Additional observations from a re-analysis of the deposited data

How the results depend on the processing

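Sbsn, Lad1 and Crybb1 kept the direction of their difference under every alternative run. Their groups did not overlap, so leaving out an array or changing the pseudocount could not reverse it. Filters and priors do not alter the difference. With each array left out in turn, the log2 difference ran from 1.61 to 2.18 for Sbsn, from -1.76 to -1.54 for Lad1 and from -2.64 to -2.48 for Crybb1. Sbsn was at 1.61 without diabetic 2 and at 2.18 without diabetic 3. The pseudocount moved the dimmer genes by construction: Lad1 was at -1.87 with a pseudocount of 1 and at -1.20 with 64, and Crybb1 at -3.14 and -1.71. The count of changed probe sets, 245, was 18 with no brightness filter, 429 with a filter at the 60th percentile, 525 with an intensity trend, 386 with a pseudocount of 64 and 163 with the replicate block, and 95 to 180 with 1 array left out (125 without normal 2, 95 without normal 3, 103 without diabetic 2 and 115 without diabetic 3). The cause was not tested. Crybb1 was not among the tested probe sets when any normal array was left out, nor at the 60th percentile (Lad1 neither) or with a filter on mean log2 signal. Of the epithelial lists, 1 gene, Itga6, was called with the filter at the 60th percentile, the intensity trend, a pseudocount of 64, the replicate block and the filter on mean log2 signal, with an adjusted p from 0.0222 to 0.204 over 16 alternatives. Of the lens lists, 1 gene, the cryptochrome Cry2, was called under the same settings except the replicate block, with an adjusted p from 0.0213 to 0.181. No neighbour was called under any of the 16 alternatives. Without detection calls, signals as low as those of Crybb1 in diabetic arrays cannot be set apart from background.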
